A study of Mus musculus with 7 samples.

Results

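Transforming growth factor beta (TGF-beta) signalling was described here through 10 genes, Tgfb1, Lrrc32, Tgfbr1, Tgfbr2, Smad2, Smad3, Smad4, Smad7, Ldlrad4 and Skil, which were picked by name from the 57180 genes of a count table. The 10 names were found on 1 row each and all 10 had enough counts to be tested. The libraries came from regulatory T cells (Treg cells) that had infiltrated B16-F0 melanoma, a transplantable mouse skin tumour, and had been sorted by their FOXP3 level into a FOXP3-high population (3 libraries) and a FOXP3-low population (4 libraries). All mice of both groups carried Foxp3-Cre-YFP, a reporter that puts Cre recombinase and yellow fluorescent protein under the control of Foxp3, and the labels give their genotype as WT. The sources used here do not give the age of the mice, the gates of the sort, or whether a library holds cells of 1 mouse or of several, so p-values measure the spread between these libraries, which may be technical.

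TGF-beta is secreted in a latent form, in which its own propeptide holds the mature cytokine inactive. On Treg cells the membrane protein GARP, encoded by Lrrc32, tethers this latent complex, and integrins pull the cytokine free. The released cytokine joins a type II and a type I receptor, the type I receptor phosphorylates SMAD2 and SMAD3, and these enter the nucleus with SMAD4, where they act on target genes that include inhibitors of the same pathway. In T cells TGF-beta is known for restraining activation and for helping to induce FOXP3.

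FOXP3-low libraries held 12177761 to 14546999 counts each and FOXP3-high libraries 9048771 to 11202260. Levels are given as CPM, counts adjusted for library size with TMM factors, and as RPKM, the same per kilobase of gene length, wherever different genes are compared. Foxp3 followed the labels, at 357 ± 44.3 CPM (SD, n = 4) in FOXP3-low and 697 ± 95.3 CPM (SD, n = 3) in FOXP3-high. Of the 9 Treg markers none was at 0 in either group, and their summed level was 2712 to 3158 CPM in FOXP3-low and 3927 to 4826 CPM in FOXP3-high. With TMM 6 of the 9 were higher in FOXP3-high, 1, Capg, was lower, and 2, Il2ra and Ikzf4, were not called. These 3 are named after their values were seen. Transcripts of other cells were present too. All 12 macrophage and monocyte markers were lower in FOXP3-high, with sums of 1493 to 1871 CPM against 65.3 to 111 CPM, and all 8 melanoma markers were higher, with sums of 1302 to 2351 CPM against 3215 to 4418 CPM. Of 18 T cell identity genes 16 were higher in FOXP3-high and 1, Thy1, was lower. Dendritic cell and MHC class II, neutrophil and cell cycle markers were lower in FOXP3-high, in 9 of 9, 5 of 5 and 8 of 8 genes, with sums in FOXP3-low and FOXP3-high of 2341 to 3609 against 192 to 314 CPM, 679 to 916 against 30.6 to 82.5 CPM and 4654 to 5038 against 967 to 1132 CPM. The 10 genes are therefore given under TMM and also after scaling each library to its summed T cell identity counts, and other genes under the second scaling where it changes their call. That scaling shifts the median log2 fold change of all genes by -0.43. Under it 3 of the 9 Treg markers were higher and 3, Capg, Il2ra and Ikzf4, were lower, where 6% of all genes were higher and 48.1% lower.

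Most of the 10 genes were higher in FOXP3-high, and the ligand was lower. Of the 10, 7 rose and 1 fell at a Benjamini-Hochberg adjusted p under 0.05 in edgeR's quasi-likelihood test, while 46.5% of all 15838 tested genes passed in either direction, 21.8% upward and 24.6% downward. Ldlrad4, Smad3, Tgfbr2, Lrrc32, Smad7, Smad4 and Skil rose, Tgfb1 fell, and Tgfbr1 and Smad2 did not pass. In 9 of the 10 the libraries of the groups did not overlap, as in 50.7% of all tested genes. The median log2 fold change (FOXP3-high minus FOXP3-low) was 0.47 over the 10 genes and 0.01 over all tested genes. With T cell identity scaling 4 of the 10 were higher, against 6% of all genes, and 3 lower, against 48.1%, with 54.1% of all genes called in either direction, and the median of the 10 was 0.04 against -0.42 over all tested genes. Ldlrad4, Smad3, Tgfbr2 and Lrrc32 were higher under both scalings and Tgfb1 was lower under both. Melanoma markers were also higher under both. With T cell identity scaling 7 of the 8 were called higher and 0 lower, with a median log2 fold change of 0.69. The part of melanoma transcripts in the rise of these 4 genes was not tested.

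**Figure D1:**
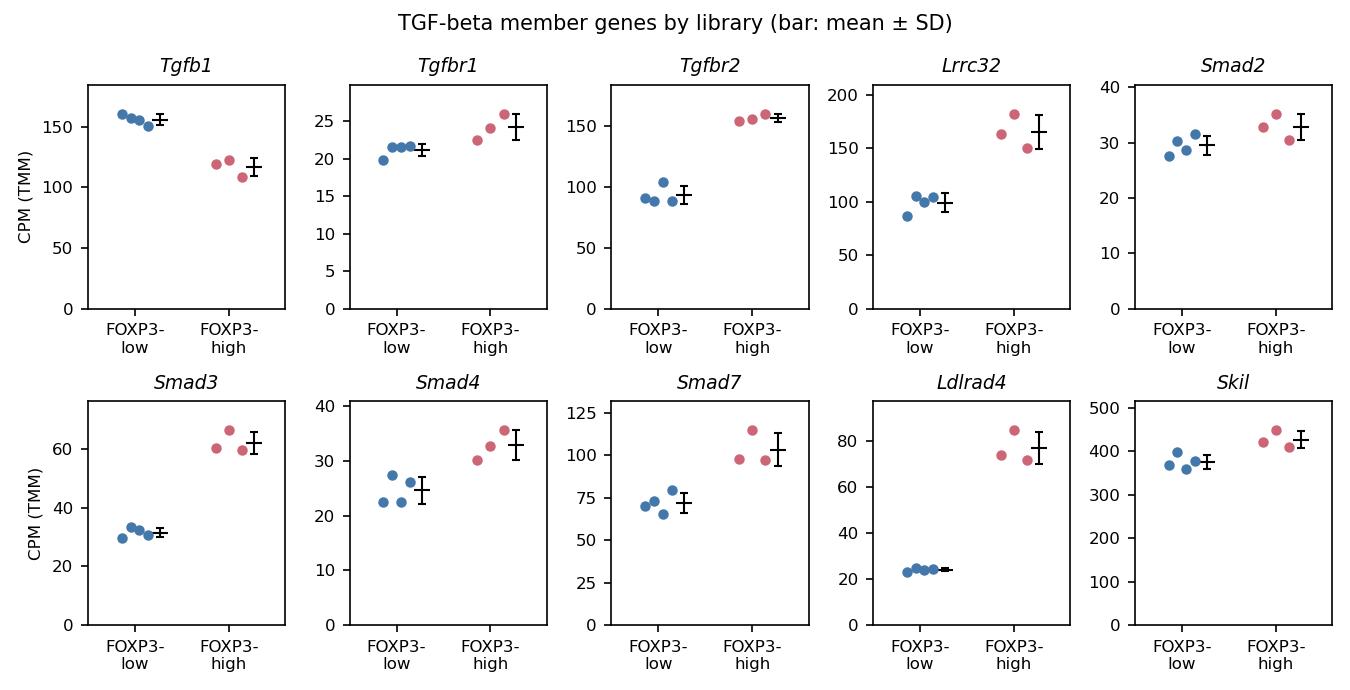
Level of each of the 10 genes in every library (y axes, CPM after TMM scaling, each starting at 0), with 4 FOXP3-low libraries in blue and 3 FOXP3-high libraries in red. Points are libraries and the black bar is the mean ± SD; the groups overlap in Smad2 alone, and Tgfb1 is the gene whose FOXP3-high libraries lie below the others.

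The ligand fell. Tgfb1, which encodes TGF-beta 1 with its latency propeptide, lies on chromosome 7 (25386427 to 25404502, plus strand, GRCm39; ENSMUSG00000002603). It was at 161, 157, 155 and 151 CPM in FOXP3-low libraries 1 to 4 and at 119.7, 123 and 108 CPM in FOXP3-high libraries 1 to 3. The lowest FOXP3-low library lay above every FOXP3-high library. The log2 fold change was -0.42 ± 0.06 (SE), 1.33-fold lower (edgeR adjusted p = 2.58e-04), while scaling to T cell identity genes gave -0.85 (edgeR adjusted p = 5.90e-06). Transcripts of Tgfb1 are also found in macrophages and platelets. All 12 macrophage and monocyte markers fell, as given above. Of 5 platelet markers 2 could be tested, of which Pf4 fell from 7.51 ± 1.5 to 0.568 ± 0.198 CPM and Itga2b, at 0.948 ± 0.314 and 1.1 ± 0.533 CPM, did not pass. The 5 summed to 7.71 to 12.3 CPM in FOXP3-low and 1.51 to 2.75 CPM in FOXP3-high, with Ppbp at 0 in all FOXP3-high libraries. The part of these cells in the fall of Tgfb1 was not tested. In bulk libraries, fewer cells of a type and less RNA per cell cannot be told apart.

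Lrrc32 moved opposite to its cargo. The gene (chromosome 7, 98138490 to 98151388, plus strand, GRCm39; ENSMUSG00000090958) encodes GARP, the docking receptor that is a surface marker of activated Treg cells. It was at 86.4, 106, 100.1 and 104 CPM in FOXP3-low libraries 1 to 4 and at 163, 182 and 149.9 CPM in FOXP3-high libraries 1 to 3. FOXP3-high libraries were all above FOXP3-low ones. The log2 fold change was 0.74 ± 0.09, 1.67-fold higher (edgeR adjusted p = 9.23e-05). Per 1000 T cell identity counts the groups still did not overlap, with 23.6 ± 2.02 counts of Lrrc32 in FOXP3-low (SD, n = 4) and 29.1 ± 1.01 in FOXP3-high (SD, n = 3), and the log2 fold change under that scaling was 0.30 (edgeR adjusted p = 0.0066). Melanoma and T cell markers rose along with Lrrc32, and the part of melanoma transcripts in the change was not tested.

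The type II receptor rose. Tgfbr2 (chromosome 9, 115913361 to 116004428, minus strand, GRCm39; ENSMUSG00000032440) encodes the receptor that binds the free cytokine first. It was at 91, 88.6, 104 and 88.2 CPM in FOXP3-low libraries 1 to 4 and at 154, 155 and 160.0 CPM in FOXP3-high libraries 1 to 3. Library 3 was the highest of each group, and the groups were far apart. Tgfbr2 was 1.68-fold higher in FOXP3-high (log2 fold change 0.75 ± 0.07, edgeR adjusted p = 1.57e-05). With T cell identity scaling the log2 fold change was 0.32 (edgeR adjusted p = 0.025), but the groups then overlapped, since FOXP3-low library 3 held 26.5 counts of Tgfbr2 per 1000 T cell identity counts and FOXP3-high library 2 held 25.5. FOXP3-low library 3 also had the most endothelial marker transcripts of its group, at 302 CPM against 94.9 to 115 CPM in the other FOXP3-low libraries, and the most fibroblast marker transcripts, at 429 CPM against 49.4 to 73 CPM. FOXP3-high library 3 was likewise the highest of its group, with endothelial markers at 335 CPM against 195 and 71.4 CPM in libraries 1 and 2. Its fibroblast markers were at 290 CPM against 173 and 18.7 CPM. The part of these cells in the Tgfbr2 levels of the libraries numbered 3 was not tested. Without both libraries numbered 3 the log2 fold change of Tgfbr2 was 0.79, and it passed in all 17 alternatives run, with values from 0.32 to 0.82.

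Tgfbr1, the type I receptor kinase that phosphorylates the receptor-regulated SMADs, did not pass. The gene (chromosome 4, 47353222 to 47414931, plus strand, GRCm39; ENSMUSG00000007613) was at 19.9, 21.5, 21.5 and 21.6 CPM in FOXP3-low libraries 1 to 4 and at 22.5, 24.1 and 26 CPM in FOXP3-high libraries 1 to 3. FOXP3-high libraries lay above the others by a narrow margin. The log2 fold change was 0.19 ± 0.08 (edgeR adjusted p = 0.087). It passed with total counts (0.26, edgeR adjusted p = 0.030) and with upper quartile factors (0.24, edgeR adjusted p = 0.039), and turned to -0.23 with T cell identity scaling (edgeR adjusted p = 0.088).

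The promoters of Tgfb1, Tgfbr2 and Smad3 are printed because the first gene fell and the other 2 rose under both scalings. RefSeq's table (GRCm38.p6, an older build than that of the counts) held a promoter for 4 of the 10 genes, each running from 250 bases before to 50 bases after a transcription start. Capitals mark the SMAD binding core CAGAC and the GC-rich SMAD site GGCGC on either strand; these 2 motifs do not overlap in the stretches printed.
Tgfb1, chr7:25686752-25687051, plus strand: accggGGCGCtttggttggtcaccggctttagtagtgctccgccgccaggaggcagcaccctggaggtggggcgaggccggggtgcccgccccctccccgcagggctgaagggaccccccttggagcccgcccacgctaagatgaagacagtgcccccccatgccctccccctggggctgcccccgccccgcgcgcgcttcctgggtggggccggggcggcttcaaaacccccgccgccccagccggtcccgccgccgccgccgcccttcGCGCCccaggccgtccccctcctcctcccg
Tgfbr2, chr9:116175314-116175613, minus strand: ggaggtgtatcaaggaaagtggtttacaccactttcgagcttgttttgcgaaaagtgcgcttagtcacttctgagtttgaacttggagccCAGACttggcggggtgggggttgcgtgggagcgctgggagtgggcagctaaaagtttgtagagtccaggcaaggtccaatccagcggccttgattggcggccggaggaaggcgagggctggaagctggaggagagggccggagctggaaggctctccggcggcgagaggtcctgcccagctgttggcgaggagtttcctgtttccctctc
Smad3, chr9:63757945-63758244, minus strand: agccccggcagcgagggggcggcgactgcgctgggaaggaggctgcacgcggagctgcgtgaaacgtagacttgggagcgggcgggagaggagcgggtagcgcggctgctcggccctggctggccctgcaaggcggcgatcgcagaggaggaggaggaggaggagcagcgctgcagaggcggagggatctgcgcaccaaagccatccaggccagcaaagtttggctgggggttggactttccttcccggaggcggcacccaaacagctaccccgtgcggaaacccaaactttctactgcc
The Tgfb1 window held GGCGC at 2 places and the Tgfbr2 window CAGAC at 1. Of all 32851 promoters in the table, 49.6% held CAGAC and 36.9% held GGCGC, so a match is common. The forkhead motif GTAAACA, present in 3.65% of promoters, and the AP-1 motif TGANTCA, present in 7.81%, both searched on either strand, were not in these 3 windows. GC content was 77% in the Tgfb1 window, 59% in the Tgfbr2 window and 67.7% in the Smad3 window, where the median promoter had 52.7%.

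Among the signal carriers, Smad3 changed the most. Smad3 (chromosome 9, 63554049 to 63665276, minus strand, GRCm39; ENSMUSG00000032402) encodes a receptor-regulated SMAD that binds DNA directly. It was at 29.8, 33.5, 32.4 and 30.5 CPM in FOXP3-low libraries 1 to 4 and at 60.3, 66.4 and 59.7 CPM in FOXP3-high libraries 1 to 3. The lowest FOXP3-high library was well above the highest FOXP3-low library. Smad3 was 1.97-fold higher (log2 fold change 0.98 ± 0.07, edgeR adjusted p = 5.58e-06), with a log2 fold change of 0.55 after T cell identity scaling (edgeR adjusted p = 2.98e-04). Across the alternatives it stayed between 0.55 and 1.04 and passed in all 17. Melanoma markers rose along with Smad3, and their part in its change was not tested.

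Smad2, the other receptor-regulated SMAD of this branch, did not pass. The gene (chromosome 18, 76374651 to 76444034, plus strand, GRCm39; ENSMUSG00000024563) was at 27.7, 30.2, 28.7 and 31.5 CPM in FOXP3-low libraries 1 to 4 and at 32.9, 35.2 and 30.4 CPM in FOXP3-high libraries 1 to 3. FOXP3-high library 3 lay below FOXP3-low library 4, so the groups overlapped. The log2 fold change was 0.15 ± 0.08 (edgeR adjusted p = 0.16). Its direction depended on the scaling: it was called higher with total counts (0.22, edgeR adjusted p = 0.038) and called lower with T cell identity scaling (-0.28, edgeR adjusted p = 0.011).

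Smad4, the shared partner that carries receptor-regulated SMADs onto their target genes, rose with TMM but not with T cell identity scaling. The gene (chromosome 18, 73772080 to 73836851, minus strand, GRCm39; ENSMUSG00000024515) was at 22.5, 27.4, 22.5 and 26 CPM in FOXP3-low libraries 1 to 4 and at 30.1, 32.8 and 35.6 CPM in FOXP3-high libraries 1 to 3. The groups did not overlap, but the spread within each was wide for the size of the gap. Smad4 was 1.33-fold higher (log2 fold change 0.42 ± 0.10, edgeR adjusted p = 0.0071). Without both libraries numbered 3 it was 0.31 and did not pass (edgeR adjusted p = 0.072). After T cell identity scaling it was -0.0062 (edgeR adjusted p = 0.97).

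The other 3 of the 10 genes encode inhibitors of the pathway. Ldlrad4 (chromosome 18, 68066328 to 68401701, plus strand, GRCm39; ENSMUSG00000024544) encodes a membrane protein that TGF-beta induces and that keeps receptor-regulated SMADs from the receptor. It was at 23, 24.7, 24 and 24.2 CPM in FOXP3-low libraries 1 to 4 and at 74, 84.7 and 71.6 CPM in FOXP3-high libraries 1 to 3. FOXP3-low libraries were almost level and all FOXP3-high libraries stood far above them. Melanoma markers rose along with Ldlrad4, and their part in its change was not tested. Ldlrad4 was 3.2-fold higher (log2 fold change 1.68 ± 0.08, edgeR adjusted p = 3.68e-07) and ranked at 99.3% of tested genes ordered by this change. It was 1.24 with T cell identity scaling and stayed between 1.24 and 1.74 over the 17 alternatives. Reads of Ldlrad4 and Fam210a, which overlap on opposite strands, may have been mixed, since no source used here says how strand entered the counting. Fam210a itself went from 17.9 to 21.5 CPM and did not pass (log2 fold change 0.26 ± 0.13, edgeR adjusted p = 0.13).

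Smad7 (chromosome 18, 75500600 to 75527057, plus strand, GRCm39; ENSMUSG00000025880) encodes the inhibitory SMAD that blocks the type I receptor and recruits ubiquitin ligases to it, and it is itself a TGF-beta target. It was at 70.1, 73.1, 65.4 and 79.7 CPM in FOXP3-low libraries 1 to 4 and at 97.9, 115 and 97.4 CPM in FOXP3-high libraries 1 to 3. Each FOXP3-high library lay above every FOXP3-low library. Smad7 was 1.43-fold higher (log2 fold change 0.52 ± 0.09, edgeR adjusted p = 8.12e-04), but its log2 fold change was 0.09 with T cell identity scaling (edgeR adjusted p = 0.27), where the groups overlapped.

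Skil (chromosome 3, 31149207 to 31176722, plus strand, GRCm39; ENSMUSG00000027660) encodes SnoN, a nuclear corepressor that binds SMAD complexes. It was at 368, 398, 359 and 377 CPM in FOXP3-low libraries 1 to 4 and at 421, 448 and 410.3 CPM in FOXP3-high libraries 1 to 3. The groups did not overlap, although the gap was small beside the level. The log2 fold change was 0.18 ± 0.05, 1.14-fold higher (edgeR adjusted p = 0.015), and it turned to -0.25 with T cell identity scaling (edgeR adjusted p = 9.64e-04). Skil did not pass without FOXP3-high replicate 1 (0.17, edgeR adjusted p = 0.060) or with no filter on low counts (0.14, edgeR adjusted p = 0.059).

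**Figure D2:**
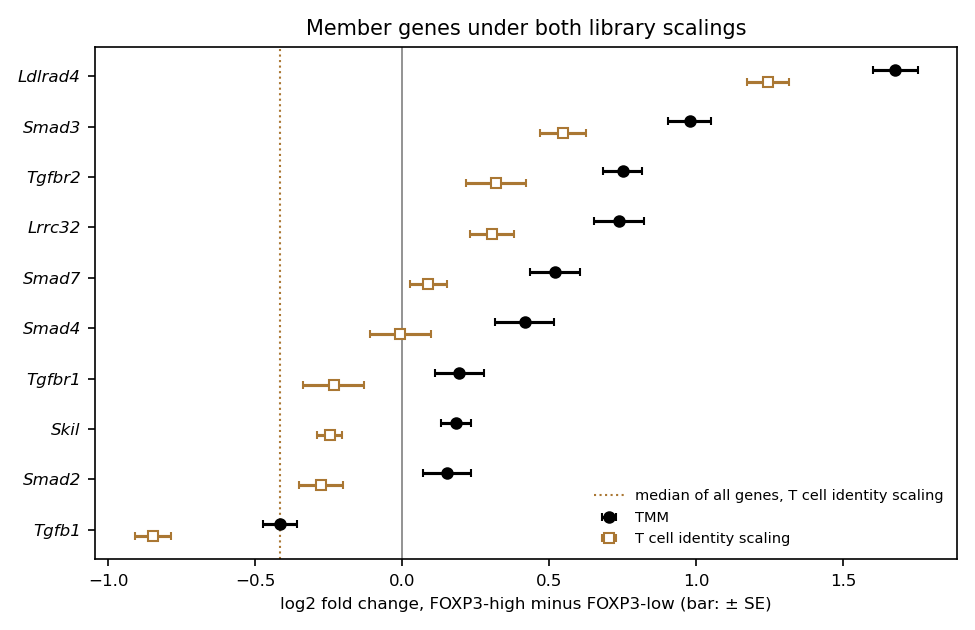
Log2 fold change of each gene (x axis, FOXP3-high minus FOXP3-low, ± SE) with TMM scaling (filled circles) and with T cell identity scaling (open squares); the dotted line is the median of all genes under the latter, -0.42. Ldlrad4, Smad3, Tgfbr2 and Lrrc32 lie right of 0 under both scalings, Tgfb1 lies left of 0 under both, and Tgfbr1, Skil, Smad2 and Smad4 change sign.

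Per kilobase the order of the 10 levels differed between the groups. Tgfb1 and Lrrc32 changed places, and further down Ldlrad4, Smad3 and Smad4 changed order. In FOXP3-low the order was Skil at 38.7 ± 1.72 RPKM, Tgfb1 at 31 ± 0.843, Lrrc32 at 21.1 ± 1.86, Smad7 at 15.9 ± 1.32 and Tgfbr2 at 11.4 ± 0.923 (SD, n = 4). In FOXP3-high Skil at 44 ± 2.01 RPKM was followed by Lrrc32 at 35.2 ± 3.48, Tgfb1 at 23.2 ± 1.52, Smad7 at 22.9 ± 2.18 and Tgfbr2 at 19.1 ± 0.372 (SD, n = 3). Tgfb1 and Smad7 overlapped in FOXP3-high. Ldlrad4 went from rank 8 in FOXP3-low, at 4.46 ± 0.129 RPKM, to rank 6 in FOXP3-high, at 14.3 ± 1.29 RPKM, passing Smad3 and Smad4. Smad3, at rank 7 in both groups, also passed Smad4, which went from rank 6 to rank 8. Smad2 and Tgfbr1 were the lowest of the 10 in both groups, at 3.36 ± 0.191 and 3.23 ± 0.129 RPKM in FOXP3-low and 3.74 ± 0.274 and 3.7 ± 0.268 RPKM in FOXP3-high, and did not separate from each other. The remaining neighbours in the order did not overlap.

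**Figure D3:**
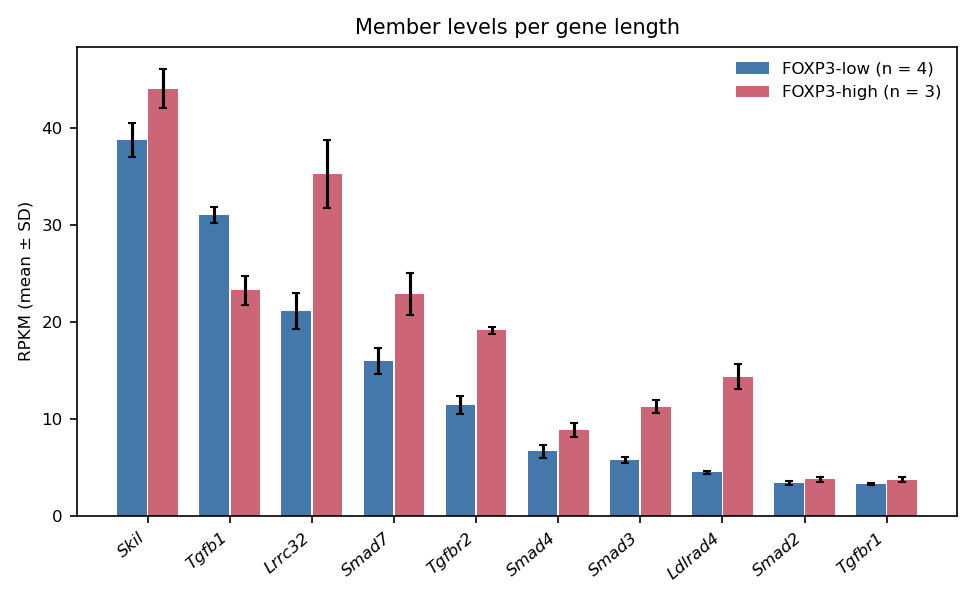
Level of the 10 genes per gene length (y axis, RPKM, mean with SD error bars) in 4 FOXP3-low (blue) and 3 FOXP3-high (red) libraries, ordered by the FOXP3-low level. Tgfb1 is above Lrrc32 in FOXP3-low, at 31 against 21.1 RPKM, and below it in FOXP3-high, at 23.2 against 35.2 RPKM.

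Ratios of 2 genes in the same library do not depend on how libraries are scaled, and 5 were compared between the groups. The Lrrc32 to Tgfb1 ratio of RPKM values was 0.578, 0.722, 0.693 and 0.741 in FOXP3-low libraries 1 to 4 and 1.47, 1.59 and 1.49 in FOXP3-high libraries 1 to 3. GARP transcripts were thus fewer than those of its cargo in every FOXP3-low library and more numerous in every FOXP3-high library, a 2.23-fold difference. A ratio still depends on which cells a library holds. Macrophage markers were lower and melanoma markers higher in FOXP3-high, and their part in the 5 ratios was not tested. The Smad3 to Smad2 ratio was 1.71, 1.75, 1.79 and 1.54 in FOXP3-low and 2.91, 2.99 and 3.11 in FOXP3-high, 1.77-fold higher. The type I to type II receptor ratio, Tgfbr1 to Tgfbr2, was 0.286 ± 0.0235 in FOXP3-low (SD, n = 4) and 0.194 ± 0.0105 in FOXP3-high (SD, n = 3), 1.48-fold lower. The Smad7 to Smad3 ratio went from 2.81 ± 0.308 to 2.04 ± 0.0708, and the Skil to Smad4 ratio went from 5.87 ± 0.37 to 5 ± 0.512. The log2 difference of Skil to Smad4 was -0.23, and -0.15 without FOXP3-high replicate 3 and -0.13 without both libraries numbered 3. No ratio overlapped between the groups. Levels of single genes did not overlap in 50.7% of all tested genes, and the share over ratios of other gene pairs was not computed. Each of the 5 ratios gave a two-sided exact permutation p = 0.0571, and 0.0571 after Benjamini-Hochberg adjustment over the 5. This is the smallest value that 35 splits of 3 against 4 libraries allow, so no ratio could pass 0.05.

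**Figure D4:**
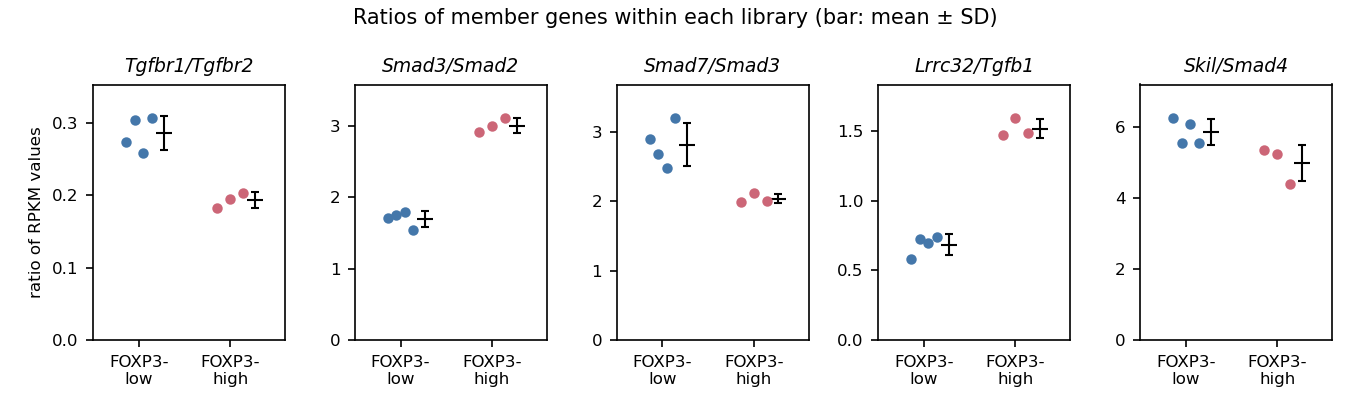
Ratio of the RPKM values of 2 genes within each library (y axes, no unit, each starting at 0) in 4 FOXP3-low (blue) and 3 FOXP3-high (red) libraries, with the mean ± SD as a black bar. Lrrc32/Tgfb1 lies below 1 in all FOXP3-low libraries and between 1.47 and 1.59 in FOXP3-high, and no ratio overlaps between the groups. The share of other gene pairs that separate in this way was not computed. The part of other cells in these ratios was not tested.

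Further genes of the pathway moved in both directions. Of 82 further pathway genes in 6 lists, 72 could be tested, of which 23 rose and 13 fell, or 50% against 46.5% of all genes, with a median log2 fold change of 0.14. With T cell identity scaling 9 of the 72 were higher and 32 lower, where 6% of all genes were higher and 48.1% lower. With TMM 50% of ligands and activation genes, 22.2% of family receptors and 66.7% of SMADs and nuclear partners passed in either direction. For turnover genes it was 47.1%, for genes that TGF-beta raises 60% and for genes it lowers 50%. The counts per list below are to be read beside the shares of all genes. The difference between these genes and the 10 was not tested. Neither was the part of other cells, melanoma cells and macrophages included, in the rises and falls of these genes.

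Ligands and activation genes were mixed, with 3 higher, 6 lower and 9 not passing of 18 tested (median log2 fold change -0.17; with T cell identity scaling 1 higher and 9 lower). Nrros, which takes the place of GARP on myeloid cells, fell from 23.5 ± 2.95 to 9.79 ± 0.698 CPM (edgeR adjusted p = 2.93e-05), alongside the macrophage markers. Hsp90b1, the chaperone gp96 that GARP needs to reach the surface, fell from 3631 ± 133 to 2373 ± 119 CPM, although it shares its position with Gm54730 and Gm15344 on the same strand. Among integrin chains that can bind latent TGF-beta, Itgb3 rose 2.27-fold from 165 ± 10.3 to 375 ± 16.2 CPM (edgeR adjusted p = 6.06e-07) and Itgb5 fell from 17.4 ± 1.91 to 5.57 ± 1.21 CPM. The melanoma markers rose along with Itgb3 and the macrophage markers fell along with Itgb5, and their part in these changes was not tested. Itgb8, the chain that with Itgav releases TGF-beta from GARP, was named after its values were seen, as were Itgav, Tgfb3 and Tgfb2. Itgb8 was at 28.2 ± 3.13 and 28.7 ± 3.05 CPM and did not pass with TMM (log2 fold change 0.02 ± 0.11, edgeR adjusted p = 0.88), but was called lower with T cell identity scaling (-0.40, edgeR adjusted p = 0.0047). Itgav was called higher by 0.23 on the log2 scale and, with T cell identity scaling, called lower (-0.20, edgeR adjusted p = 0.015). The alternative ligand Tgfb3 was at 8.32 ± 1.31 and 8.33 ± 2.58 CPM, and Tgfb2 was too low to be tested.

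Of 9 family receptors tested 1 rose, 1 fell and 7 did not pass (with T cell identity scaling 1 higher and 3 lower). Acvr2a, a type II receptor for activins, rose 2.96-fold from 4.97 ± 0.174 to 14.7 ± 1.71 CPM (edgeR adjusted p = 1.46e-05); Orc4 overlaps it on the opposite strand. Acvrl1, a type I receptor best known from endothelium, went down from 15.5 ± 2.11 to 5.44 ± 2.27 CPM (edgeR adjusted p = 0.0013). The macrophage, dendritic cell and neutrophil markers fell too, as given above. The 7 summed endothelial markers overlapped between the groups, at 94.9 to 302 CPM and 71.4 to 335 CPM. The part of any of these cells in the fall of Acvrl1 was not tested.

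Of 12 tested SMADs and nuclear partners 8 rose with TMM, where 21.8% of all genes did, and 4 did not pass (median log2 fold change 0.31). Of those 4, Zfyve9 (-0.58), Runx1 (-0.11) and Smad1 (-0.05) had values below 0; they are named here after their values were seen. Ski, the close relative of Skil, rose 1.55-fold from 114 ± 5.21 to 177 ± 0.439 CPM (edgeR adjusted p = 7.78e-06). The histone acetyltransferases that SMADs recruit rose as well, Crebbp from 150.2 ± 5.53 to 240.4 ± 12.6 CPM and Ep300 from 141 ± 7.23 to 193 ± 10.6 CPM. The corepressor Ncor1 rose 1.24-fold to 851 ± 38.3 CPM. With T cell identity scaling the list had 2 higher, Crebbp and Ski, and 3 lower, Zfyve9 and Runx1 among them, and its median was -0.12, while Ep300 and Ncor1 did not pass (edgeR adjusted p = 0.85 and 0.067).

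Genes of SMAD and receptor turnover gave 6 higher, 2 lower and 9 not passing of 17 (with T cell identity scaling 1 higher and 10 lower). Pmepa1, a TGF-beta-induced membrane protein of the same family as Ldlrad4 that sequesters receptor-regulated SMADs, rose 1.79-fold from 13.1 ± 1.32 to 23.5 ± 0.727 CPM (edgeR adjusted p = 1.19e-04), and was the 1 gene of the list called higher with T cell identity scaling (0.42, edgeR adjusted p = 0.012). The ubiquitin ligases Rnf111, which degrades SnoN and SMAD7, and Wwp1 rose 1.35-fold and 1.45-fold, but did not pass with T cell identity scaling (edgeR adjusted p = 0.93 and 0.41). Uchl5, a deubiquitinase that acts on type I receptors, was at 78.4 ± 3.65 CPM in FOXP3-low and fell to 43.1 ± 0.589 CPM (edgeR adjusted p = 4.85e-06).

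Genes that TGF-beta is known to raise in T cells or other cells did not move as 1 group, with 4 higher, 2 lower and 4 not passing of 10 tested. Gpr15, a gut-homing receptor, rose 4.76-fold from 5.89 ± 0.583 to 28.1 ± 2.25 CPM (edgeR adjusted p = 7.03e-07), and Itgae, which encodes CD103, rose 2.36-fold from 69.2 ± 4.21 to 163 ± 17.5 CPM, with Haspin overlapping it on the opposite strand. Nt5e (CD73, an enzyme that makes adenosine outside cells), named after its values were seen, rose 2.6-fold from 29.5 ± 2.57 to 76.8 ± 14.4 CPM (edgeR adjusted p = 1.62e-05). Tgfbi, a matrix protein that macrophages express strongly, fell from 349 ± 67.9 to 13.6 ± 8.32 CPM, and Cdkn1a, a cell cycle inhibitor, from 49.5 ± 3.31 to 18.8 ± 0.308 CPM (edgeR adjusted p = 1.19e-06). The fall of Tgfbi went with that of the macrophage markers, whose part in it was not tested, and Cdkn1a fell along with the macrophage and the cell cycle markers, whose part was not tested. The 4 higher genes stayed higher with T cell identity scaling, while 4 of the 10 were then lower and the list's median log2 fold change was -0.24.

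Of 6 tested genes that TGF-beta is known to lower, 1 rose, 2 fell and 3 did not pass with TMM, and 3 were lower with T cell identity scaling. Eomes, a T-box factor of cytotoxic cells, fell from 7.24 ± 2.08 to 2.35 ± 0.649 CPM (edgeR adjusted p = 0.0016), along with the CD8 T and NK cell markers, whose sum was 28.6 to 35.4 CPM in FOXP3-low and 9.33 to 13.7 CPM in FOXP3-high. Myc fell 1.42-fold to 27.1 ± 1.68 CPM, along with the cell cycle markers, whose part was not tested. Gzmb, which encodes granzyme B, rose from 227 ± 9.84 to 343 ± 58.4 CPM (edgeR adjusted p = 6.88e-04), but did not pass with T cell identity scaling (0.16, edgeR adjusted p = 0.082). Tbx21, which encodes T-bet and was named after its values were seen, was at 30.5 ± 1.79 and 31 ± 2.99 CPM and did not pass with TMM, but was called lower with T cell identity scaling (-0.41, edgeR adjusted p = 0.0014).

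**Figure D5:**
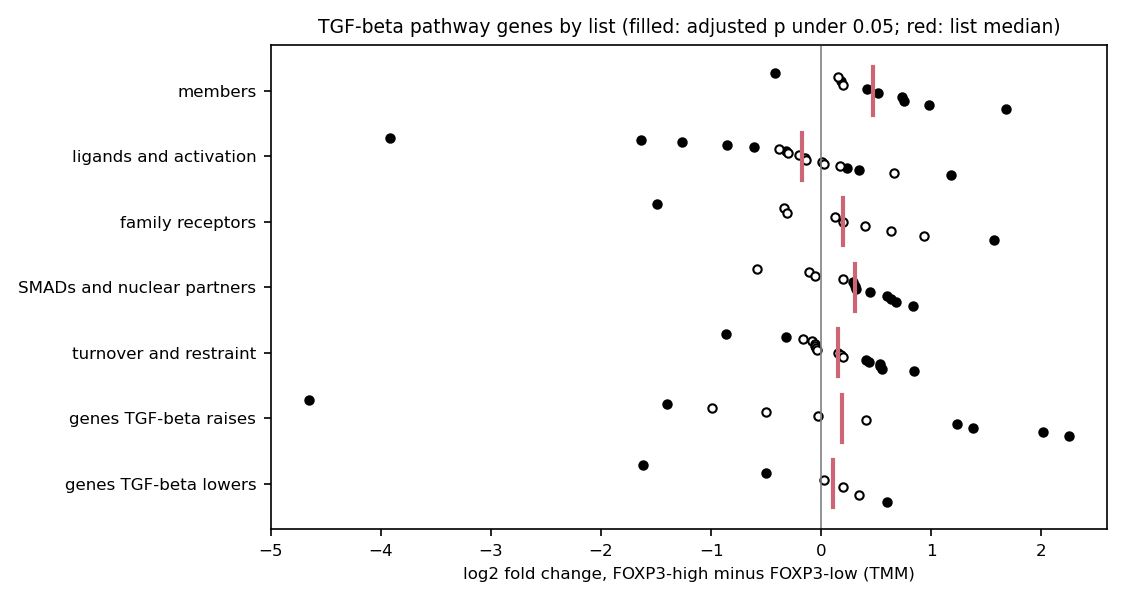
Log2 fold change (x axis, FOXP3-high minus FOXP3-low, TMM scaling) of the 10 genes and of 6 further lists of TGF-beta pathway genes (rows); points are genes, filled where the edgeR adjusted p was under 0.05, and the red line is the list's median. The 10 genes have a median of 0.47, ligands and activation genes one of -0.17, and Tgfbi at -4.65 and Thbs1 at -3.92 lie farthest to the left.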

How the data were processed

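RNA was extracted with TRIzol and stranded mRNA libraries were made from 100 to 200 ng of total RNA, per the labels' protocols. The authors deposited whole-number counts per gene, without normalization, in a table with gene coordinates and gene length. The builds GRCm39 and GRCh38 stand in the submitters' processing notes, with featureCounts, STAR 2.5.3a and fastp 0.23.4, and the mouse coordinates are given as GRCm39. How strand, shared reads and duplicates were handled is not given in those sources. The length column, in bases, is other deposited information and served for RPKM.

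Groups came from the sample titles. Counts were filtered with filterByExpr (minimum count 10, total 15), scaled by TMM and tested without a block in edgeR 4.0.16 (R 4.3.3; glmQLFit, glmQLFTest), with Benjamini-Hochberg adjustment over 15838 genes. 1 CPM stands for 8.98 to 14.3 counts. Each standard error is the size of the log2 fold change over the square root of F. Replicates of a group differed by more than counting noise (chi-square per gene 3.98 to 12.2), so all 7 libraries were kept. On simulated counts over 15499 genes, 100 genes were changed by 1 on the log2 scale and 100 by 0.5. Of these 79% and 26% were recovered, with 8 false calls. Far fewer genes changed there than passed in the data, so these shares do not describe recovery in this comparison. The 10 genes and all lists were chosen with earlier results of these data known. Beside the 10, named genes are Foxp3 and, per pathway list, up to 4 with the smallest adjusted p, or the 2 most abundant where none passed; the text says which others were named after their values were seen, and Fam210a is named because it overlaps Ldlrad4. All 187 list entries matched a symbol. Alternatives used DESeq2 1.42.0 and limma 3.58.1 (voom), other scalings and filters, and fewer libraries. T cell identity scaling used 18 genes. No protein sequences were used here.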

Additional observations from a re-analysis of the deposited data

Results flagged for a closer look

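Of 27 sets of FOXP3-low values examined (the 10 genes, the 5 ratios and 12 summed marker lists), 4 had a library far from the other 3, where chance gives about 1 in 20. The FOXP3-low CPM of Tgfbr1 had 0.939 of its range between library 1, at 19.9 CPM, and the nearest of the others, at 21.5 CPM. The summed fibroblast markers had 0.938 of their range between library 3, at 429 CPM, and the nearest library, at 73 CPM. The summed endothelial markers had 0.904 of theirs between library 3, at 302 CPM, and the nearest, at 115 CPM. The summed B cell markers had 0.951 of theirs between library 1, at 4.62 CPM, and the nearest, at 3 CPM. Groups of 3 libraries were not examined in this way.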

How the results depend on the processing

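Of 170 member fold changes under alternatives, 159 kept their direction and their side of the threshold, and all 50 ratio values moved by less than 1 SD between replicates, although the Skil to Smad4 difference of -0.23 shrank to -0.15 without FOXP3-high replicate 3 and to -0.13 without both libraries numbered 3. T cell identity scaling made the largest difference: 951 genes higher and 7615 lower in all against 3459 and 3898 with TMM, 4 members higher and 3 lower, and 9 pathway genes higher and 32 lower. It reversed Tgfbr1 (-0.23), Smad2 (-0.28), Smad4 (-0.0062) and Skil (-0.25). This scaling shifted the median of all genes by -0.43. Which of the scalings is closer to the cells was not tested. Leaving out 1 library at a time gave 6392 to 6890 genes, 7 to 8 of the 10 genes described here and 31 to 38 pathway genes called. Without both libraries numbered 3 the counts were 6502, 7 and 39. With the replicate number as a block, 7029 genes, 8 members and 38 pathway genes were called, and the Lrrc32 to Tgfb1 difference was 1.2 on the log2 scale over the pairs. Same-numbered libraries did not deviate together in every pair (r = -0.25, 0.14 and 0.70), so the numbers were not taken to pair the samples, and FOXP3-low library 1 correlated best with FOXP3-high library 2 (r = 0.50). By CPM without length, 5 of the 10 ranks in FOXP3-high were different. Tgfbr2 ranked 3 and not 5, Tgfb1 4 and not 3, and Smad7 5 and not 4. Smad2 ranked 8 and not 9, and Smad4 9 and not 8. In the simulation most changes of 0.5 on the log2 scale were missed, but only 100 genes were changed by 0.5 and 100 by 1. In the data 46.5% of tested genes passed, so the simulated shares do not give the share missed in this comparison.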

Other observations

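The genes whose levels followed the members most closely over the 7 libraries, among the 8696 genes averaging 10 CPM or more, were Upf2 and Gpr132 for Lrrc32 (Pearson r = 0.999 and 0.998), Crebbp and Slc4a7 for Smad3 (both r = 0.999), Dcaf8 and S1pr1 for Tgfbr2 (both r = 0.998), Gpr174 and Kmt2d for Ldlrad4 (r = 0.9998 and 0.999) and Ddx39a and Sms for Tgfb1 (r = 0.997 and 0.996). These values are descriptions: the libraries form 2 groups, and 1628 genes followed Lrrc32 with r above 0.9 and 1753 genes followed Ldlrad4.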
